A study of Mus musculus with 9 samples.

Results

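Expression of 10 mouse genes of the Wnt signal that patterns the liver lobule was measured on 9 arrays. They were taken by name from the platform annotation, with the brightest probe set kept where a gene had more than 1, and they are 10 of 19938 genes tested. Of the 10, 3 are signals made by endothelial cells (Wnt2, Wnt9b, Rspo3) and 7 are targets of the pathway (Glul, Axin2, Lgr5, Nkd1, Tbx3, Znrf3, Rnf43). All 10 were measured and none was removed by a filter. The arrays form 3 groups of 3. The AS cell line group holds 3 angiosarcoma lines, each derived separately from hepatic endothelial cells of Notch1 knockout mice that bore a visible tumour and kept in long culture until a uniform population grew out. KO liver is liver of mice with MxCre, a Cre under an interferon-inducible promoter that is active in many cell types, and Notch1 lox/lox, in which the exon for the signal peptide is deleted. WT liver is liver of Notch1 lox/lox mice without MxCre. All of these mice were C57Bl/6 animals. Both genotypes were injected with polyinosinic-polycytidylic acid, an inducer of interferon, at 300 µg on day 0, day 3 and day 6, starting when 4 weeks old. The age at which livers were collected is not given in the sources used here, and Cre and loss of Notch1 cannot be told apart because no Cre control group is included.

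Wnt ligands bind Frizzled receptors and the co-receptors Lrp5 and Lrp6 and thereby stabilise beta-catenin, which switches on target genes with TCF/LEF factors. In liver, endothelial cells of the central vein and nearby sinusoids secrete Wnt2, Wnt9b and the R-spondin Rspo3, and hepatocytes around the vein answer with pericentral genes such as Glul, glutamine synthetase. R-spondins act through Lgr receptors such as Lgr5 to remove Znrf3 and Rnf43, a pair of membrane ubiquitin ligases that take Wnt receptors off the cell surface. Axin2 is a scaffold of the beta-catenin destruction complex and Nkd1 binds Dishevelled. Both are feedback inhibitors of the pathway. Tbx3 is a T-box transcription factor that responds to beta-catenin in hepatocytes.

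The sequences before the transcription starts of Wnt2, Nkd1 and Rnf43 are shown because these genes differed most in size between lines and livers among the targets and signals with a RefSeq promoter. RefSeq (GRCm38.p6) gave 7 windows for 6 of the 10 genes (Wnt2, Wnt9b, Glul, Axin2, Nkd1 and, with 2 starts, Rnf43). Each window below is the 250 bases before a start, 5′ to 3′ on the gene's strand, at chr6:18030446-18030695 (minus strand) for Wnt2, chr8:88527383-88527632 (plus) for Nkd1, and chr11:87662837-87663086 and chr11:87699647-87699896 (plus) for the starts of Rnf43. Capitals mark matches to the GATA motif.
Wnt2: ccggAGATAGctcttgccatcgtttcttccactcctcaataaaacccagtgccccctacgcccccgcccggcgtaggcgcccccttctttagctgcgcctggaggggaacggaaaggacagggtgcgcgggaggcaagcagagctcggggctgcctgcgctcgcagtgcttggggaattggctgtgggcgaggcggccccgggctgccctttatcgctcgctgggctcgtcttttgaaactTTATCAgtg
Nkd1: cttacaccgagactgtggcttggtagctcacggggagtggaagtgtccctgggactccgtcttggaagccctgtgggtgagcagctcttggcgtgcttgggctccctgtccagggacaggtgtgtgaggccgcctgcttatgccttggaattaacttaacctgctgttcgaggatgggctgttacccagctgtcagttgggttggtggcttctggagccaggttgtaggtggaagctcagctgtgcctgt
Rnf43, upstream start: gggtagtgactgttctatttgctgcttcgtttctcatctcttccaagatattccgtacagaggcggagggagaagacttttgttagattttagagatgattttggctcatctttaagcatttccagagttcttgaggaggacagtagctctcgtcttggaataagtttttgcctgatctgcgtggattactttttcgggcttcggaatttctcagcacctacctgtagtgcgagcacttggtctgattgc
Rnf43, downstream start: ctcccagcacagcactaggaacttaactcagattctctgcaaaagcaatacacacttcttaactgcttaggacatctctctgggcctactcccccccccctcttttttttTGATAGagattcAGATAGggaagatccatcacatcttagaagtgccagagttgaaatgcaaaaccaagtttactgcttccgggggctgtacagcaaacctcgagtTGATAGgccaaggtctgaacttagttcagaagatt

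The TCF/LEF motif was searched on both strands as CTTTGAA or CTTTGAT or CTTTGTA or CTTTGTT, and was in 0 of the 7 windows and in 14.8% of all 32851 windows of this length. The GATA motif, bound by factors such as Gata4 of sinusoidal endothelium, was searched on both strands as AGATAA or AGATAG or TGATAA or TGATAG. It was in 2 of the 7 windows, with 2 matches for Wnt2 and 3 at the downstream start of Rnf43, and in 26.5% of all windows. A match describes these letters and is not a measured binding site.

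The unit throughout is log2 signal from robust multi-array averaging (RMA), for which no detection calls were used here. Array medians ran from 6.53 to 6.63, so values near or below them may be background, and a difference against such a value is understated. Notch1 had a mean of 8.37 ± 0.47 in KO livers and 11.47 ± 0.39 in WT livers (SD, n = 3 each). The lines went against their endothelial origin in marker content: the mean of 16 pan-endothelial genes was 6.37 to 6.64 in the lines, against 11.41 to 11.88 in KO livers and 11.40 to 11.52 in WT livers. In bulk RNA, fewer cells of a type and less RNA per cell cannot be told apart. Whether whole liver or a fraction of it was extracted is also not settled, and the effect of the preparation on cell content was not tested. The mean of 25 hepatocyte genes was 10.49, 12.53 and 9.10 in KO replicates 1, 2 and 3 and 11.23, 12.38 and 12.41 in WT replicates 1, 2 and 3, so that KO replicate 2 and WT replicate 1 stood apart from the rest of their groups. KO replicate 3 also differed in Eif2s3y, a Y-linked gene, at 8.66 against 3.86 to 4.06 on the other 8 arrays. Sex was not among the sample details used here, and its part in the KO values was not tested.

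The first comparison, KO with WT livers, addresses what MxCre and loss of Notch1 together change in the liver. None of the 10 genes passed an adjusted p of 0.05 in limma (0 higher and 0 lower), with 0 under an unadjusted p of 0.05. Over all genes, 0% passed the adjusted threshold, and 17.3% were higher and 5.17% lower at an unadjusted p under 0.05. Groups that do not overlap were found for 0 of the 10 genes, against 19.2% of all genes with every KO array above the WT arrays and 11.1% with every KO array below. The median log2 difference was 0.25 for the 3 signals and -0.42 for the 7 targets, against -0.00113 for all genes.

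Wnt2 stood at 10.11, 10.68 and 11.21 in KO livers 1, 2 and 3, against 10.19, 9.77 and 9.91 in WT livers 1, 2 and 3. KO replicate 1 lay inside the WT range and the other 2 KO livers above it. The log2 difference was 0.71 (SE 0.291, 95% interval -0.01 to 1.44, adjusted p = 0.226). It was 0.44 without KO replicate 3 (adjusted p = 0.434) and 0.99 without KO replicate 1 (adjusted p = 0.284). Rspo3 stood at 8.17, 7.70 and 8.21 in KO livers, against 7.70, 7.88 and 7.75 in WT livers. KO replicate 2 was at the level of the WT livers and the other 2 were higher, with a difference of 0.25 (interval -0.13 to 0.63, adjusted p = 0.375). Without KO replicate 2 the Rspo3 difference was 0.41 and passed the threshold (adjusted p = 0.0485). In that fit 1949 of all 19938 genes passed, 1671 of them higher. The level of the pan-endothelial list moved with Rspo3: its mean was 11.88, 11.41 and 11.87 in KO livers 1, 2 and 3, against 11.52, 11.40 and 11.43 in WT livers. With that mean as a covariate the Rspo3 difference was -0.01 (SE 0.126), and its slope per log2 unit was 0.95 (SE 0.302). The slope was 0.12 (SE 0.988) for Wnt2 and -0.21 (SE 0.436) for Wnt9b. Wnt9b had 6.99, 7.23 and 7.09 in KO livers, against 7.51, 7.09 and 7.20 in WT livers, a difference of -0.16 (interval -0.49 to 0.17).

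Among the targets, Glul stood at 12.11, 12.81 and 12.49 in KO livers 1, 2 and 3, against 12.71, 13.09 and 12.99 in WT livers 1, 2 and 3. Only KO replicate 2 reached the WT range, and the difference was -0.46 (interval -0.96 to 0.05, adjusted p = 0.255). The other Glul probe set had 11.71, 12.35 and 11.99 in KO livers, against 12.19, 12.74 and 12.51 in WT livers, the same order of arrays. Lgr5 had 6.14, 7.76 and 5.84 in KO livers, against 6.32, 7.97 and 7.25 in WT livers. Its spread within each genotype, with SDs of 1.03 in KO and 0.83 in WT livers, exceeded the difference of -0.60 (interval -2.21 to 1.00). Rnf43 had 6.45, 7.97 and 6.45 in KO livers, against 6.77, 7.84 and 7.81 in WT livers. Tbx3 had 7.15, 8.40 and 6.72 in KO livers, against 7.29, 8.0 and 8.23 in WT livers, and Znrf3 had 6.98, 7.42 and 6.48, against 6.97, 7.37 and 7.37. These 3 genes shared the pattern of Lgr5. KO replicates 1 and 3 and WT replicate 1 were low, and KO replicate 2 and WT replicates 2 and 3 were high. Some low values lay below the array medians and may be background. They were Lgr5 in KO replicates 1 and 3 and WT replicate 1, Rnf43 in KO replicates 1 and 3, and Znrf3 in KO replicate 3. Glul and Axin2 split the livers the same way, with narrower gaps. Axin2 had 5.84, 6.04 and 5.87 in KO livers, against 5.74, 6.37 and 5.91 in WT livers. The KO minus WT differences were -0.52 for Rnf43, -0.42 for Tbx3 and -0.28 for Znrf3, with adjusted p-values of 0.561, 0.616 and 0.537. With array weights 3 targets passed, at -0.72 for Glul (adjusted p = 0.0205), -1.52 for Lgr5 (adjusted p = 0.0403) and -1.19 for Rnf43 (adjusted p = 0.0298). The weights were lowest for WT replicate 1 (0.274) and KO replicate 2 (0.315). In that fit 5744 of all 19938 genes passed, 1839 of them lower, against 0 without weights. Nkd1 differed by 0.12 (interval -0.26 to 0.49) and Axin2 by -0.09 (interval -0.53 to 0.35), and Axin2 had a mean of 5.92 in KO and 6.01 in WT livers, under the array medians.

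**Figure D1:**
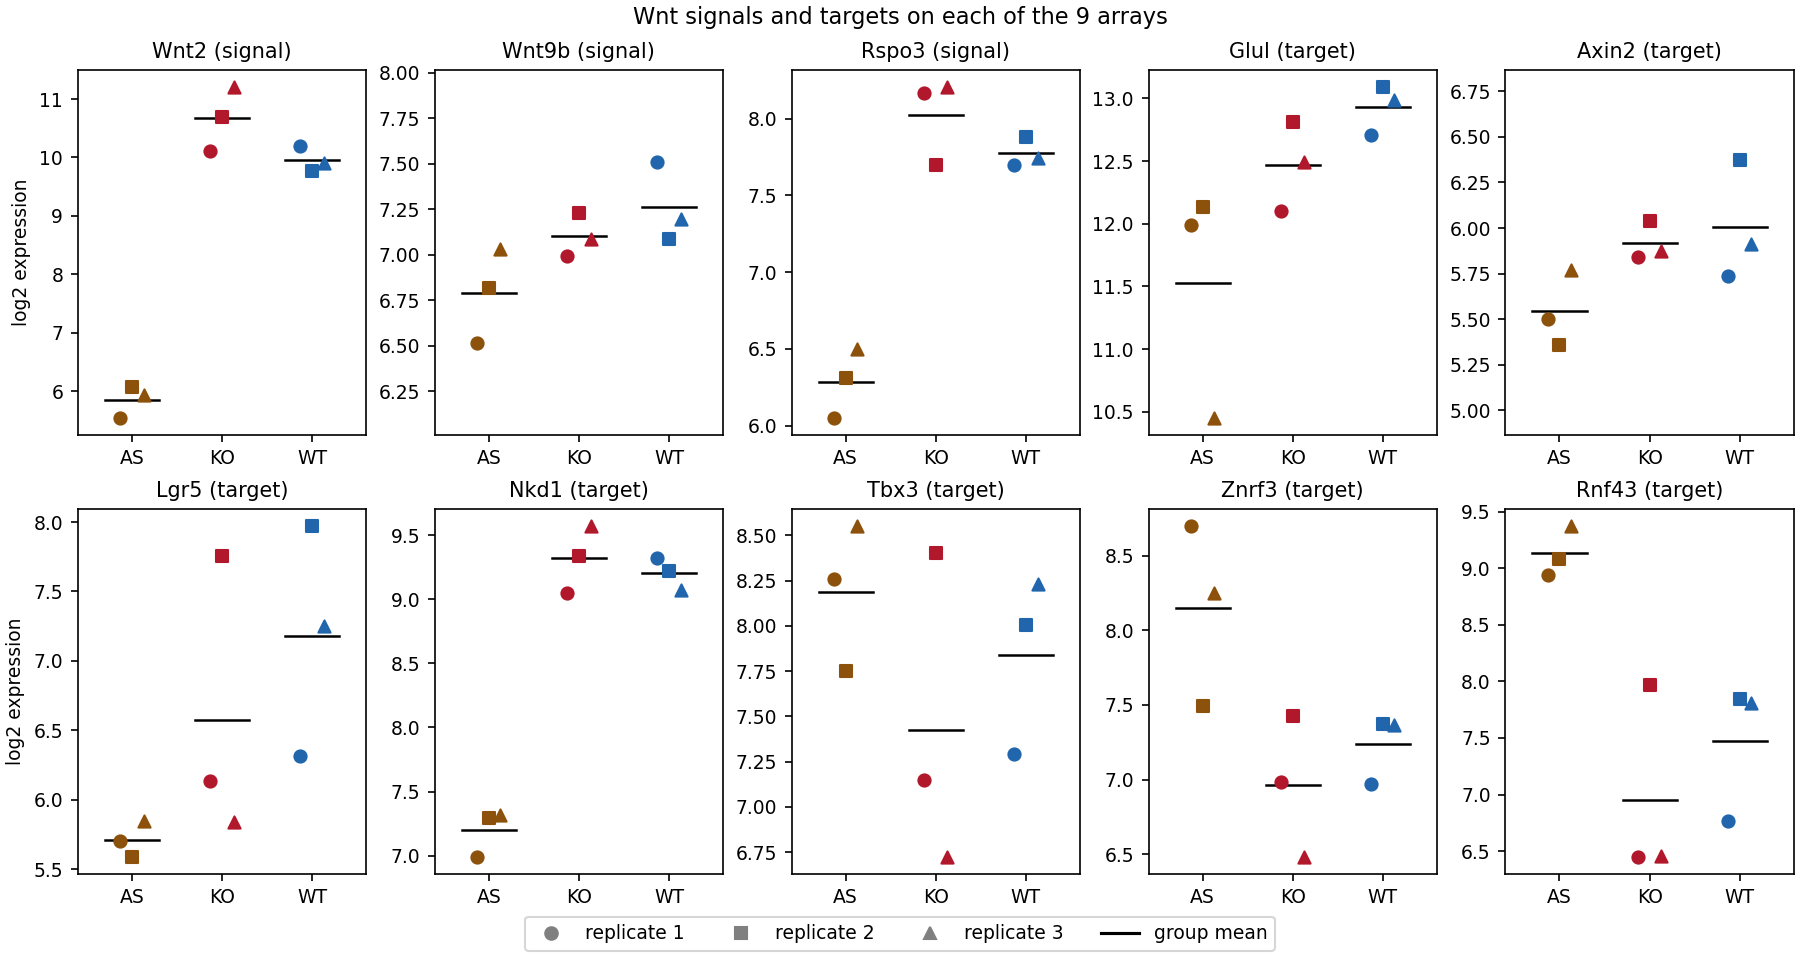
Log2 expression (y axis, a separate range for each gene) of the 3 signals and 7 targets on the arrays of AS cell lines, KO livers and WT livers (x axis), with 1 point per array and a bar at the group mean. Wnt2, Rspo3 and Nkd1 are lower in every line than in every liver, and Rnf43 and Znrf3 are higher. KO replicate 2 (square) is the highest KO liver for every target except Nkd1.

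The level of hepatocyte genes moved with Lgr5, Tbx3, Rnf43 and Znrf3, and less steeply with Glul and Axin2. In a fit of the 6 livers with genotype and the mean of the hepatocyte list, 1 log2 unit of that mean went with 0.65 (SE 0.140) for Lgr5, 0.53 (SE 0.0600) for Tbx3, 0.52 (SE 0.112) for Rnf43 and 0.28 (SE 0.0335) for Znrf3. The slope was 0.14 (SE 0.0818) for Glul and 0.09 (SE 0.0779) for Axin2. It was -0.07 (SE 0.0693) for Nkd1, -0.12 (SE 0.0550) for Rspo3, -0.14 (SE 0.130) for Wnt2 and -0.00142 (SE 0.0659) for Wnt9b. These slopes describe 6 livers that fall into arrays of high and low hepatocyte level, and are given without a test. For Lgr5, Rnf43 and Znrf3 they rest in part on values below the array medians, which may be background. Slopes on the pan-endothelial mean, fitted separately, were -4.29 (SE 1.03) for Lgr5 and -3.61 (SE 0.697) for Rnf43. They were -3.38 (SE 0.659) for Tbx3, -1.61 (SE 0.504) for Znrf3 and -1.22 (SE 0.420) for Glul. KO 1, KO 3 and WT 1, low in hepatocyte level, had the highest pan-endothelial means, so these lists cannot be told apart here. In the fit with the hepatocyte mean the genotype difference of 5 targets changed sign. It was 0.24 for Lgr5, 0.27 for Tbx3, 0.16 for Rnf43, 0.09 for Znrf3 and 0.03 for Axin2, with adjusted p-values from 0.374 to 0.942. Glul kept a negative difference of -0.28 (SE 0.205, adjusted p = 0.455).

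**Figure D2:**
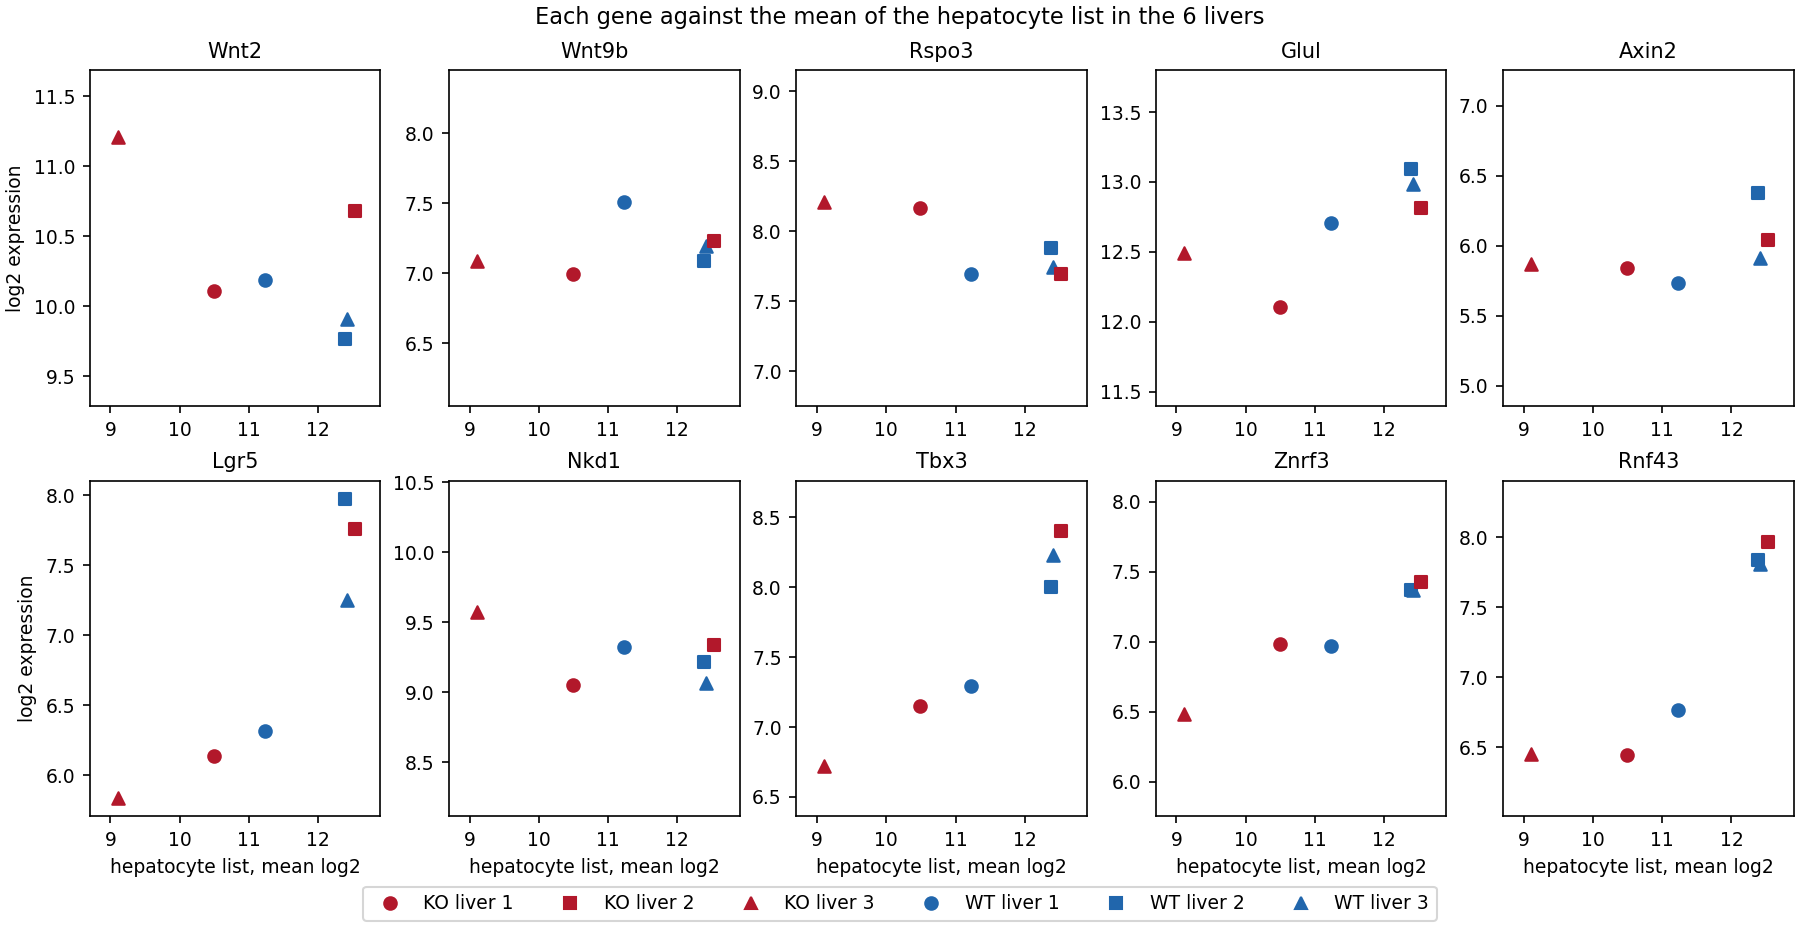
Log2 expression of each gene (y axis) against the mean log2 value of 25 hepatocyte genes (x axis) in the 3 KO livers and 3 WT livers, 1 point per array. The 3 livers with the higher hepatocyte means are KO 2, WT 2 and WT 3. They all lie above KO 1, KO 3 and WT 1 for Lgr5, Tbx3, Znrf3, Rnf43, Glul and Axin2. The gap is narrow for Glul and Axin2, and Wnt2, Wnt9b, Rspo3 and Nkd1 show no such split.

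Zonated hepatocyte genes beyond the 10 were read from lists. Of 15 measured pericentral genes, 15 had negative KO minus WT differences, with a median of -1.48, and 0 passed the adjusted threshold or an unadjusted p under 0.05. Cyp2c37, a cytochrome P450, had a difference of -2.05 (adjusted p = 0.307), which was -3.18 when KO replicate 2 was left out (adjusted p = 0.0375). The retinal dehydrogenase Aldh1a1 differed by -1.88 (adjusted p = 0.31). Of 12 periportal genes, 12 were negative with a median of -1.70, 0 passed and 5 had an unadjusted p under 0.05. Of all genes, 5.17% were lower at that p. Cyp2f2, a P450 of periportal cells, had a difference of -3.58 (adjusted p = 0.139), which was -4.75 when that array was left out (adjusted p = 0.0145). Hal, which breaks down histidine, had one of -3.24 (adjusted p = 0.139), or -4.16 with that array left out (adjusted p = 0.0295). With array weights, which gave KO replicate 2 and WT replicate 1 little weight, all 4 passed, at -3.22 for Cyp2c37 (adjusted p = 0.0178), -3.11 for Aldh1a1 (adjusted p = 0.0165), -4.57 for Cyp2f2 (adjusted p = 0.00945) and -4.13 for Hal (adjusted p = 0.00986). Over all genes 5744 passed with array weights and 1949 without KO replicate 2. With the pan-endothelial mean as a covariate the difference was 0.020 for Cyp2c37 and 0.0032 for Aldh1a1, while Cyp2f2 and Hal did not change sign. The general hepatocyte list moved alongside the pericentral and periportal lists, with 25 of 25 negative and a median of -1.23. Its part in the pericentral and periportal lists as a whole was not tested.

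The lines were then compared with each liver group. Against KO livers, 3 of the 10 genes fell in the lines (Wnt2, Rspo3, Nkd1) and 1 rose (Rnf43), and over all genes 10.1% were called lower and 11.4% higher. Against WT livers the same 3 and Lgr5 fell and Rnf43 rose, and over all genes 11.1% were called lower and 17.6% higher. Both comparisons use the same 3 lines. Split by role, 2 of 3 signals fell against each liver group, while of the 7 targets 1 fell and 1 rose against KO livers, and 2 fell and 1 rose against WT livers.

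Wnt2 had 5.54, 6.07 and 5.93 in lines 1, 2 and 3, against the liver values above, of which the lowest was 9.77. All 3 lines lay below the array medians. The log2 difference was -4.82 (SE 0.311, adjusted p = 0.000598) from KO livers, or 28.3-fold lower, and -4.11 (SE 0.183, adjusted p = 8.3e-05) from WT livers, or 17.3-fold lower. The order of the Wnt2 group means was thus KO liver, WT liver and AS line, of which the 2 liver groups overlapped. Rspo3 had 6.05, 6.31 and 6.50 in the lines, all below the array medians and below the lowest liver, at 7.70. It differed by -1.74 (SE 0.189, adjusted p = 0.00338) from KO livers and by -1.49 (SE 0.137, adjusted p = 0.00112) from WT livers. The calls of Wnt2 and Rspo3 held in every alternative run, with adjusted p-values up to 0.0213. Wnt9b had 6.52, 6.82 and 7.03 in the lines, which overlapped the KO livers. It differed by -0.31 (interval -0.70 to 0.07, adjusted p = 0.22) from KO livers and by -0.47 (interval -0.92 to -0.03, adjusted p = 0.104) from WT livers.

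Endothelial markers were lower along with these signals, and over all genes 10.1% were called lower against KO livers. Of 16 pan-endothelial genes 16 fell against KO livers, with a median of -5.24, as did 13 of 13 sinusoidal genes, with a median of -6.06, and 6 of 7 venous genes, with a median of -1.82. The junction cadherin Cdh5 was at 5.52 ± 0.11 in the lines and 12.91 ± 0.16 in KO livers (SD, n = 3 each). The DNase Dnase1l3 had a log2 difference of -8.07 (adjusted p = 1.47e-05), and the receptor kinase Kit, found on central vein endothelium, one of -4.42 (adjusted p = 0.000226). The part of endothelial content in the lower Wnt2 and Rspo3 values was not tested.

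Nkd1, the target that fell against both liver groups, had 6.99, 7.29 and 7.32 in the lines, against 9.05 to 9.57 in the KO livers and 9.07 to 9.33 in the WT livers. It differed by -2.12 (SE 0.169, adjusted p = 0.00118) from KO livers and -2.01 (SE 0.129, adjusted p = 0.000313) from WT livers, and these calls held in every alternative run. Lgr5 had 5.70, 5.59 and 5.85 in the lines, below the array medians. KO replicate 3, at 5.84, lay inside that range, and all 3 WT livers lay above it. The difference was -0.87 (adjusted p = 0.316) from KO livers and -1.47 (SE 0.412, adjusted p = 0.0465) from WT livers. The call against WT livers was lost without WT replicate 2 or 3 or without any 1 of the lines, with adjusted p-values from 0.0847 to 0.133, and likewise with a replicate block (adjusted p = 0.0703), with all 9 arrays in one fit (adjusted p = 0.0794) and with repeated quantile normalization (adjusted p = 0.0571).

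Rnf43 was higher in the lines, at 8.94, 9.08 and 9.37, than in every liver, of which the highest was KO replicate 2, at 7.97. It differed by 2.18 (SE 0.452, adjusted p = 0.0252) from KO livers, or 4.52-fold, and by 1.66 (SE 0.322, adjusted p = 0.0143) from WT livers, or 3.16-fold. The KO call was lost without KO replicate 1 or 3 or without any 1 of the lines (adjusted p from 0.0574 to 0.0888), whereas the difference stayed between 1.92 and 2.27 in those fits. The WT call held in every alternative run. Znrf3, the paralogous ligase, had 8.7, 7.49 and 8.25 in the lines, also above every liver, though line 2 exceeded KO replicate 2, at 7.42, only slightly. It differed by 1.19 (interval 0.21 to 2.16, adjusted p = 0.0923) from KO livers and 0.91 (interval 0.11 to 1.71, adjusted p = 0.091) from WT livers. Without line 2 both passed, at 1.52 (adjusted p = 0.0456) and 1.24 (adjusted p = 0.0149). With every line kept, the difference of 1.19 from KO livers also passed with all 9 arrays in one fit (adjusted p = 0.0356) and after removal of dim genes (adjusted p = 0.0496).

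Glul had 11.99, 12.14 and 10.45 in the lines, with line 3 far below the others. All 3 lines lay below the WT livers and line 2 alone reached the KO range. On the other probe set the lines had 11.55, 11.49 and 10.29, and none reached the KO range, whose lowest value was 11.71. On the brighter probe set Glul differed by -0.95 (adjusted p = 0.257) from KO livers and by -1.40 (adjusted p = 0.0756) from WT livers. The difference from WT livers passed the threshold in 5 alternatives. With every line kept it was -1.40 with all 9 arrays in one fit (adjusted p = 0.0377) and after removal of dim genes (adjusted p = 0.0368), -1.54 with 75th percentile scaling (adjusted p = 0.0356) and -1.69 with array weights (adjusted p = 0.0178). Without line 3 it was -0.87 (adjusted p = 0.018). Tbx3 had 8.26, 7.75 and 8.55 in the lines, overlapping both liver groups, with differences of 0.76 (adjusted p = 0.34) and 0.34 (adjusted p = 0.471) from KO and WT livers. Axin2 had 5.50, 5.36 and 5.77, below the array medians as in all livers, and differed by -0.38 (adjusted p = 0.106, and -0.49 with adjusted p = 0.0399 without line 3) from KO and -0.47 (adjusted p = 0.148) from WT livers.

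**Figure D3:**
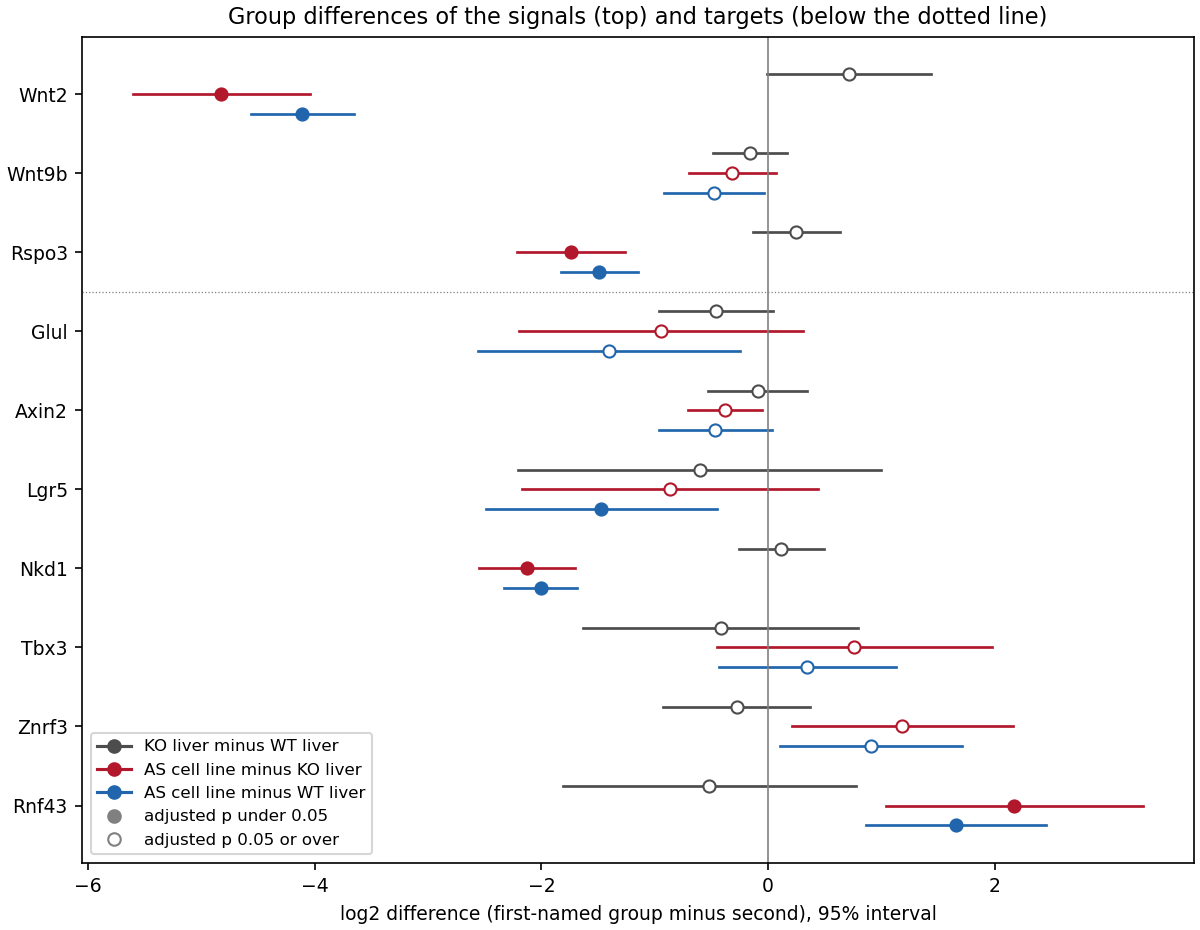
Log2 difference (x axis) with its 95% interval for each gene (y axis) between KO and WT livers, AS lines and KO livers, and AS lines and WT livers; filled points have an adjusted p under 0.05 in limma. No interval of KO minus WT is called, Wnt2, Rspo3 and Nkd1 lie left of 0 and Rnf43 right of 0 in both comparisons of the lines, and Lgr5 is called against WT livers alone.

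Other parts of the pathway had genes called in both directions in the lines. Among all genes 10.1% were called lower and 11.4% higher against KO livers, and 11.1% lower and 17.6% higher against WT livers. The list counts here and below are descriptive, and whether they exceed these shares was not tested. Of 17 other Wnt ligands 0 passed against either liver group in limma, with 1 of them under an unadjusted p of 0.05 against KO livers, higher, and 1 against WT livers, lower. Wnt5a, a ligand of the beta-catenin-independent branch, was at 6.76 ± 1.17 in the lines, 5.29 ± 0.16 in KO livers and 5.43 ± 0.05 in WT livers (SD, n = 3 each). Without line 2 it passed against both (differences of 2.12 and 1.97). Both genes of Wnt secretion rose against WT livers: Porcn, the acyltransferase of Wnt proteins, by 2.77 (adjusted p = 0.0294) and Wls, their carrier, by 1.10 (adjusted p = 0.0142). Against KO livers Porcn rose by 2.81 (adjusted p = 0.0407) and Wls differed by 0.85 (adjusted p = 0.0545), which passed with all 9 arrays in one fit (adjusted p = 0.0145), dim genes left out (0.0363), array weights (0.0193) or line 1 left out (0.0116). Porcn lost its calls with a replicate block (adjusted p = 0.0524 against KO and 0.059 against WT livers) and without any 1 of the 3 livers of either group or without line 2 or 3 (adjusted p from 0.0929 to 0.132 against KO and from 0.0698 to 0.0979 against WT livers). Wls lost its call against WT livers without any 1 of those livers (adjusted p from 0.0532 to 0.0564).

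Of 16 receptors and co-receptors, 4 fell and 2 rose against KO livers, and 4 fell and 3 rose against WT livers. The shares of all genes were 10.1% lower and 11.4% higher, and 11.1% lower and 17.6% higher. Fzd4, the receptor that also binds norrin in endothelium, had differences of -2.24 (adjusted p = 0.00399) and -1.84 (adjusted p = 0.00107) from KO and WT livers, and Fzd8 of -2.22 (adjusted p = 0.0169) and -2.43 (adjusted p = 0.0114). The Fzd8 call against KO livers was lost without any 1 of these livers (adjusted p from 0.0554 to 0.0697). The receptor Ror1 rose by 1.77 against KO livers (adjusted p = 0.019), a call lost when KO replicate 1 (adjusted p = 0.0787) or KO replicate 3 (adjusted p = 0.0731) was left out, and Fzd1 rose by 1.35 against WT livers (adjusted p = 0.00444). Of 11 TCF/LEF factors and cofactors 3 fell and 3 rose against KO livers, and 3 fell and 4 rose against WT livers. Tcf7l1, a mostly repressive TCF factor, fell to 6.4 ± 0.14 in the lines, against 10.15 ± 0.32 in KO livers and 9.59 ± 0.15 in WT livers (SD, n = 3 each). The co-repressors Tle4 and Tle1 had differences of -2.05 and -2.03 from KO livers (adjusted p = 0.0124 and 0.00438), and the Tle4 call was lost when KO replicate 1 (adjusted p = 0.0504) or KO replicate 3 (adjusted p = 0.056) was left out. Of 14 genes of beta-catenin and its destruction complex 1 rose and 0 fell against KO livers, and 4 rose and 0 fell against WT livers, led by the Dishevelled gene Dvl3 at 1.02 (adjusted p = 0.0017) and 1.44 (adjusted p = 0.000591).

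Of 15 Wnt inhibitors, 2 fell against KO and 3 against WT livers and 0 rose. As shares of all genes, 10.1% fell and 11.4% rose against KO livers, and 11.1% fell and 17.6% rose against WT livers. Frzb, a secreted Frizzled-related protein, differed by -1.31 from KO livers (adjusted p = 0.043), a call lost with a replicate block (adjusted p = 0.058) and without KO replicate 1 or 3 or any 1 line (adjusted p from 0.0974 to 0.144). Dkk3 differed by -1.54 from WT livers (adjusted p = 0.000135). Of 10 Wnt targets known from other tissues 2 rose and 1 fell against KO livers, and 3 rose and 0 fell against WT livers. Sox9, a progenitor factor, rose by 3.05 (adjusted p = 0.000653) and 2.20 (adjusted p = 0.000543), Bmp4 by 1.63 and 1.80 (adjusted p = 0.0108 and 0.00194), and the cyclin Ccnd1 by 1.5 against WT livers (adjusted p = 0.00263). Of 5 other R-spondins and receptors 0 passed, with Lgr6 at 1.28 against KO livers (adjusted p = 0.135, and 1.76 with adjusted p = 0.0319 without line 2).

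Pericentral hepatocyte genes were mostly lower in the lines: 3 of 15 fell and 1 rose against KO livers, and 11 fell and 1 rose against WT livers, with a median of -2.61 from KO and -3.77 from WT livers. Cyp2e1, the ethanol-metabolising P450, was at 5.42 ± 0.18 in the lines, 12.12 ± 1.3 in KO livers and 13.20 ± 0.37 in WT livers (SD, n = 3 each). Cyp1a2 differed by -4.33 from KO livers (adjusted p = 0.0193), a call lost without any 1 line (adjusted p from 0.0509 to 0.0592), and by -6.08 from WT livers (adjusted p = 0.000218). Aldh1a1 was at 12.91 ± 0.63 in the lines, 9.13 ± 1.81 in KO livers and 11.00 ± 0.87 in WT livers. Its rise of 3.79 over KO livers (adjusted p = 0.0449) was lost without KO replicate 1 or 3 or any 1 line (adjusted p from 0.0756 to 0.143). Of 12 periportal genes 1 fell and 1 rose against KO livers (median -1.09), and 7 fell and 1 rose against WT livers (median -3.15). Of 25 hepatocyte genes 4 fell and 0 rose against KO livers (median -1.92), and 11 fell and 0 rose against WT livers (median -3.07). Differences were positive for 8 of them against KO and 2 against WT livers. The mean of the list was 8.41, 10.39 and 8.51 in lines 1, 2 and 3, so line 2 lay above KO replicate 3, at 9.10. Median differences over all genes in these 2 comparisons were 0.05 from KO and 0.02 from WT livers. The shares of all genes called were 10.1% lower and 11.4% higher against KO livers, and 11.1% lower and 17.6% higher against WT livers.

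**Figure D4:**
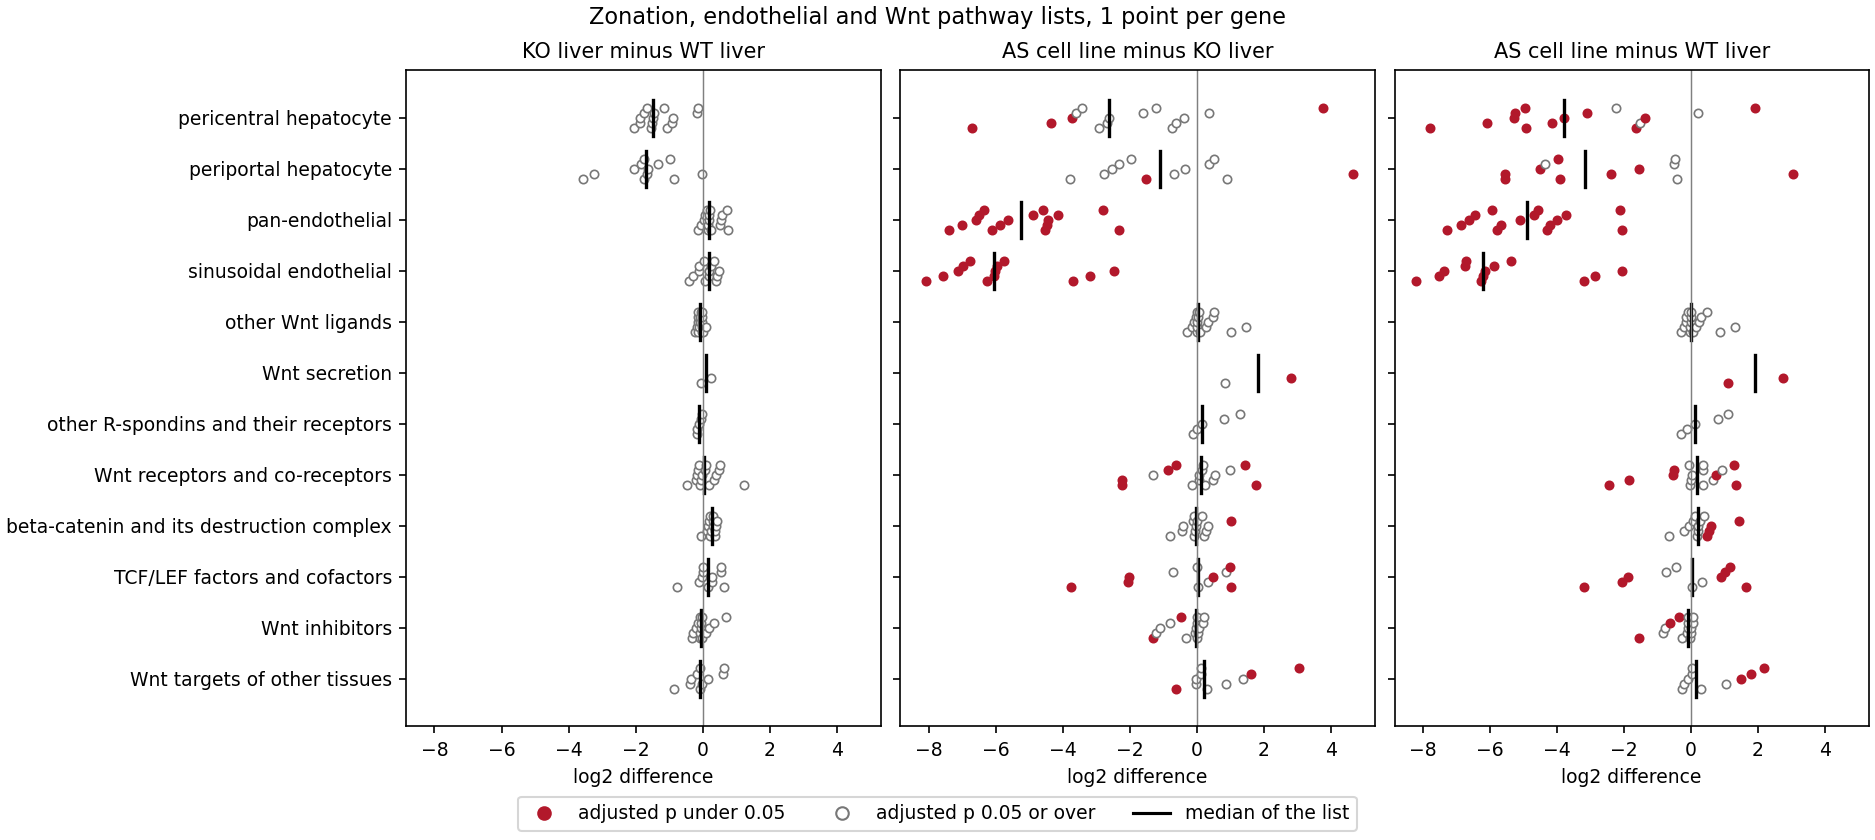
Log2 difference (x axis) of each measured gene in 12 lists (y axis) for KO minus WT livers, AS lines minus KO livers and AS lines minus WT livers; red points have an adjusted p under 0.05 and bars mark list medians. Pericentral and periportal points lie left of 0 in KO minus WT, endothelial points lie far left in both comparisons of the lines, and the medians of the Wnt pathway lists lie near 0 there, except Wnt secretion, whose 2 genes lie right of 0. Receptors and TCF/LEF factors have points called on both sides in both comparisons of the lines.

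Genes with the most similar profile were sought as those with the smallest mean absolute difference of centred log2 values over the 9 arrays. They were Map3k8 (0.226) and Ifi208 (0.234) for Wnt2, and Spag9 (0.0836) and Msrb3 (0.0926) for Rspo3. For Nkd1 they were Lrmp (0.104) and Plekho2 (0.114), for Rnf43 Fam20c (0.116) and Pard3 (0.131), and for Glul Herc6 (0.166) and Nol10 (0.187). For Lgr5 they were Nlrp6 (0.148) and Acss3 (0.160), for Tbx3 Fads2 (0.159) and Etfa (0.182), and for Znrf3 Rab11fip1 (0.143) and Ppm1l (0.163). Wnt9b and Axin2 varied little, and their nearest profiles were Cntnap5c (0.0682) and Fam89a (0.0599).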

How the data were processed

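Total RNA of 6 livers and 3 cell lines was labelled with a whole-transcript kit, per the labels' protocols, and hybridised to 1 array each. The extraction protocol names PHH without explaining it, and whether whole liver or a fraction was extracted is not settled. Per the submitters' processing notes, RMA and the oligo package made the deposited log2 values, with no version stated there. Probe sets were named from the platform annotation: of 35556, 21789 had 1 gene, 1621 several and 12146 were not listed, and the brightest probe set of a gene was kept, leaving 19938 genes. Groups came from the sample titles.

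For every comparison limma 3.58.1 (R 4.3.3) was run on the 6 arrays concerned, without covariates and 2-sided. P-values were adjusted by Benjamini-Hochberg across the 19938 genes, and 0.05 was the limit for a call. The fit was tested on simulated data. Fold changes are differences of mean log2 values, and 3 arrays per group limit their precision. The members, the 19 gene lists (222 of 236 entries measured) and the alternatives were chosen with earlier results of these data known. All 10 members are named, and from each list up to 3 genes of largest absolute difference in a comparison. The alternatives were a replicate block, 1 fit of all 9 arrays, trended robust moderation, a filter on dim genes (mean below 7.19), 75th percentile scaling, repeated quantile normalization, the mean of probe sets, array weights, leaving out each replicate, and covariates for the hepatocyte and pan-endothelial lists. Nothing in the labels ties replicates to separate litters or days, and p-values measure the spread between these samples.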

Additional observations from a re-analysis of the deposited data

How the results depend on the processing

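Against the lines, every difference of the 10 genes kept its direction in all alternatives run. Of their alternatives that left out no array, 75 for KO and 70 for WT livers kept the side of the threshold as well. For KO minus WT livers 15 values of the 10 genes changed sign, and the cause was not tested. With the hepatocyte covariate Axin2 was 0.028, Lgr5 0.24, Tbx3 0.27, Znrf3 0.089 and Rnf43 0.16, and with the pan-endothelial covariate Rspo3 was -0.0090, Axin2 0.072, Lgr5 0.56, Tbx3 0.50, Znrf3 0.16, Rnf43 0.47, Cyp2c37 0.020 and Aldh1a1 0.0032. Nkd1 was -0.041 with 75th percentile scaling and -0.030 with repeated quantile normalization. With each replicate left out in turn, Nkd1 ran from -0.0081 (without KO replicate 3) to 0.25 and Axin2 from -0.23 to 0.093 (without WT replicate 2). The scaling moved the median of all genes to -0.16 for KO minus WT and to -0.11 for AS minus WT.

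The number of genes past the threshold in KO against WT livers, 0 in the report, was 2 with 9 arrays in one fit and 5744 with array weights, and 0 to 1949 with each replicate left out in turn (1949 without KO replicate 2 and 60 without WT replicate 1). Of the 10 genes, 0 passed in these fits except 3 lower with array weights, which gave KO replicate 2 and WT replicate 1 weights of 0.315 and 0.274 (Glul, Lgr5 and Rnf43), and 1 without KO replicate 2 (Rspo3), a range of 0 to 1 with each replicate left out. For AS lines against KO livers the totals, 4275, ran from 2281 without KO replicate 1 to 4048 with each replicate left out, and against WT livers, 5715, from 3397 without WT replicate 2 to 5435. Calls among the 10 genes then ran from 3 to 4 and from 4 to 5. With a replicate block, 0, 4 and 4 of the 10 genes passed in the 3 comparisons, against 0, 4 and 5, and Lgr5, Porcn and Frzb were the named genes that lost a call. Same-numbered KO and WT livers deviated from their group means with correlations of 0.312, 0.430 and -0.393, so the numbers were not taken as a pairing. Wnt9b, Axin2 and Lgr5 had means below the filter on dim genes and have no value there.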

Other observations

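Markers of other liver cells differed in the lines as well, where 10.1% of all genes were called lower and 11.4% higher against KO livers. Of 10 Kupffer cell and macrophage genes 10 fell against KO livers (median -5.61), and of 11 stellate cell and fibroblast genes 9 fell (median -2.86). Of 8 cholangiocyte genes 4 rose and 1 fell (median 0.53), and of 6 mesothelial genes 3 rose and 0 fell (median 1.55), with Msln higher by 5.88 (adjusted p = 9.98e-05). Of 9 proliferation genes 0 passed, and their mean was 10.80, 7.20 and 8.71 in lines 1, 2 and 3. In KO against WT livers 0 genes of these 5 lists passed, the 9 proliferation genes all had an unadjusted p under 0.05 and were higher (median 1.91), and the medians were 0.02 for Kupffer, -0.04 for stellate, -0.23 for cholangiocyte and -0.19 for mesothelial genes. Among the Wnt lists the KO minus WT medians were 0.28 for beta-catenin and its destruction complex, 0.17 for TCF/LEF factors, 0.10 for Wnt secretion, 0.03 for receptors, -0.06 for inhibitors, -0.07 for other ligands, -0.07 for targets of other tissues and -0.12 for other R-spondins and receptors, with 0 genes past the adjusted threshold in limma and 6, 3, 1, 3, 1, 0, 2 and 0 of them higher at an unadjusted p under 0.05. At that p, 1 TCF/LEF factor, 1 receptor and 2 targets of other tissues were lower. For these lists and the proliferation genes, the shares of all genes at that p were 17.3% higher and 5.17% lower. Whether any Wnt list exceeds these shares was not tested. Lef1, a TCF/LEF factor, differed by -0.76 (adjusted p = 0.19, and -0.88 with adjusted p = 0.0163 with array weights). The co-receptor Ptk7 differed by 1.24 (adjusted p = 0.209), by 1.79 without KO replicate 2 (adjusted p = 0.0154) and by 1.58 with array weights (adjusted p = 0.0146).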
